A study of Mus musculus with 12 samples.

Results

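RANKL, R-spondin 1 and Wnt4 are secreted or cell-surface signals that pass between epithelial cells of the mammary gland, and their 6 genes are described here: Tnfsf11 (RANKL), its receptor Tnfrsf11a (RANK), its decoy receptor Tnfrsf11b (osteoprotegerin), Wnt4, Rspo1 and the R-spondin receptor Lgr4. They were taken by symbol from a table of 27179 genes, each symbol matched 1 row, and 6 of the 6 passed the filter on low counts among 14903 genes tested. RNA was sequenced from mammary epithelial cells of female mice, with 3 libraries in each of 4 groups: basal and luminal cells of control mice, strain Foxp1(fl/fl), and basal and luminal cells of mice labelled Foxp1 knockout, strain MMTV-cre/Foxp1(fl/fl). Both genotypes carried the floxed alleles, and the control strain was labelled with no Cre. Cre was driven by the promoter of mouse mammary tumour virus, which is active in mammary epithelium and in some other glands such as salivary gland. Neither the age or cycle stage of the mice nor the number of animals behind each library is stated in the labels.

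In the mammary gland, progesterone acts on luminal cells that carry its receptor, and these hormone-sensing cells answer with paracrine ligands for neighbours that have no receptor of their own. RANKL binds RANK on other luminal and basal cells and drives their proliferation through NF-kB, while osteoprotegerin is a soluble receptor that captures RANKL before it reaches RANK. Wnt4 is a second progesterone-regulated ligand, and R-spondin 1, made by luminal cells, amplifies Wnt signals in basal cells by binding Lgr receptors and so taking the ligases Znrf3 and Rnf43 off the cell surface.

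Levels are given as CPM, which are counts relative to library sizes scaled with TMM factors, and differences as log2 folds with their standard error (SE) from edgeR's quasi-likelihood test. A gene is said to have risen or fallen, or is called, where its p adjusted over the 14903 genes was under 0.05. Libraries held 9769361 to 15449513 counts. The cell fractions carried the markers of their labels: the basal keratin Krt5 stood at 2306 to 7270 CPM in the 6 basal libraries and at 12.8 to 321 CPM in the 6 luminal ones, while the luminal keratin Krt19 stood at 45.6 to 262 CPM and at 1687 to 4118 CPM. Foxp1, the targeted gene, was at 62.0 to 82.3 CPM in luminal controls and 150 to 161 CPM in luminal knockout-labelled libraries, and at 160 to 221 CPM and 193 to 284 CPM in the basal ones, and it was called higher in luminal cells (log2 fold 1.07, SE 0.19, adjusted p = 0.0161). These gene-level counts run against the knockout label but include exons outside the deleted part, so the libraries are called knockout-labelled and each direction below rests on the labels. Transcripts of salivary gland were present, with the 16 listed genes taking 1.28% to 12.4% of counts in luminal controls and 2.17% to 9.24% in luminal knockout-labelled libraries. Single salivary genes differed, with 3 of 13 tested called higher and 1 lower in luminal cells, beside 3.03% of all genes called. Named after their values were seen, Smr3a fell from a mean of 13285 to 18.8 CPM (log2 fold -9.47, SE 1.18, adjusted p = 0.00321). Prh1 rose (log2 fold 9.23, SE 1.40, adjusted p = 0.00788). Smr3a also fell in basal cells (log2 fold -5.89, SE 1.02, adjusted p = 0.0312).

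Tnfsf11, the gene of RANKL (Entrez 21943, GRCm38 chromosome 14, 78277446 to 78308043, minus strand), was a luminal transcript in controls and was close to the basal level in luminal knockout-labelled cells. Luminal control replicates 1, 2 and 3 held 29.3, 36.9 and 13.6 CPM, from 313, 399 and 135 counts. The luminal knockout-labelled replicates held 1.10, 0.63 and 0.40 CPM, from 11, 7 and 6 counts. Every control was far above every knockout-labelled library, and the groups did not overlap. Tnfsf11 fell by 5.25 on the log2 scale (SE 0.63, adjusted p = 0.00291, n = 3), lower in 3 of 3 libraries. Of all genes tested in this comparison, 3.03% were called and 0.819% were called lower, while 25.4% had groups that did not overlap, 12.3% with the knockout-labelled group lower.

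In basal cells Tnfsf11 was near the limit of detection. The basal controls held 3, 5 and 0 counts and the basal knockout-labelled libraries 4, 7 and 3 counts, which is 0 to 0.45 CPM and 0.33 to 0.63 CPM. The library with 0 counts allows a level of up to 0.277 CPM, the level of 3 counts, by counting error alone. The basal groups overlapped, as those of all 6 genes did in basal cells, where 12.4% of all genes had groups that did not. The log2 fold was 0.83 (SE 0.80, adjusted p = 0.949). The luminal change was larger than the basal one, with a log2 difference of -6.08 (SE 1.01, adjusted p = 0.0392), a contrast in which 0.275% of genes were called. That call was lost on leaving out any 1 of 9 of the 12 libraries, basal control replicate 3, luminal knockout replicate 1 and luminal control replicate 3 being the exceptions, with adjusted p from 0.02 to 0.147 over the 12. In the controls Tnfsf11 was 100.7-fold higher in luminal than in basal cells (log2 fold 6.65, SE 0.70, adjusted p = 3.71e-05). In the knockout-labelled libraries the luminal and basal groups overlapped, and the fold was 0.57 on the log2 scale (SE 0.70, adjusted p = 0.539).

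Rspo1, a secreted amplifier of Wnt signalling (Entrez 192199, chromosome 4, 124986401 to 125009102, plus strand), was also highest in luminal controls, with more spread between those libraries. Luminal controls held 110, 246 and 22.6 CPM in replicates 1, 2 and 3, and luminal knockout-labelled libraries 18.6, 5.55 and 5.14 CPM. The groups did not overlap, but control replicate 3 and knockout-labelled replicate 1 were near each other. Rspo1 fell by 3.70 on the log2 scale (SE 0.82, adjusted p = 0.0357, n = 3), lower in 3 of 3 libraries than in any control. Leaving out 1 library at a time moved the log2 fold between -4.56 and -2.77, and the call was lost in 8 of 12 such fits. These were the fits without replicate 1 (adjusted p = 0.082) or 2 (0.132) of the luminal controls, those without luminal knockout-labelled replicate 2 (0.141) or 3 (0.14), and 4 without a basal library, at adjusted p of 0.0521 to 0.0562. Basal libraries held 2.77 to 11.3 CPM in controls and 2.06 to 3.14 CPM in the knockout-labelled group, which overlapped (log2 fold -1.29, SE 0.84, adjusted p = 0.833). The luminal effect minus the basal one was -2.41 on the log2 scale and was not called (SE 1.14, adjusted p = 0.523). Luminal controls were 19.8-fold above basal controls (log2 fold 4.31, SE 0.85, adjusted p = 0.00252). Knockout-labelled libraries did not overlap between cell types, but the luminal excess was not called (log2 fold 1.90, SE 0.83, adjusted p = 0.0898).

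**Figure D1:**
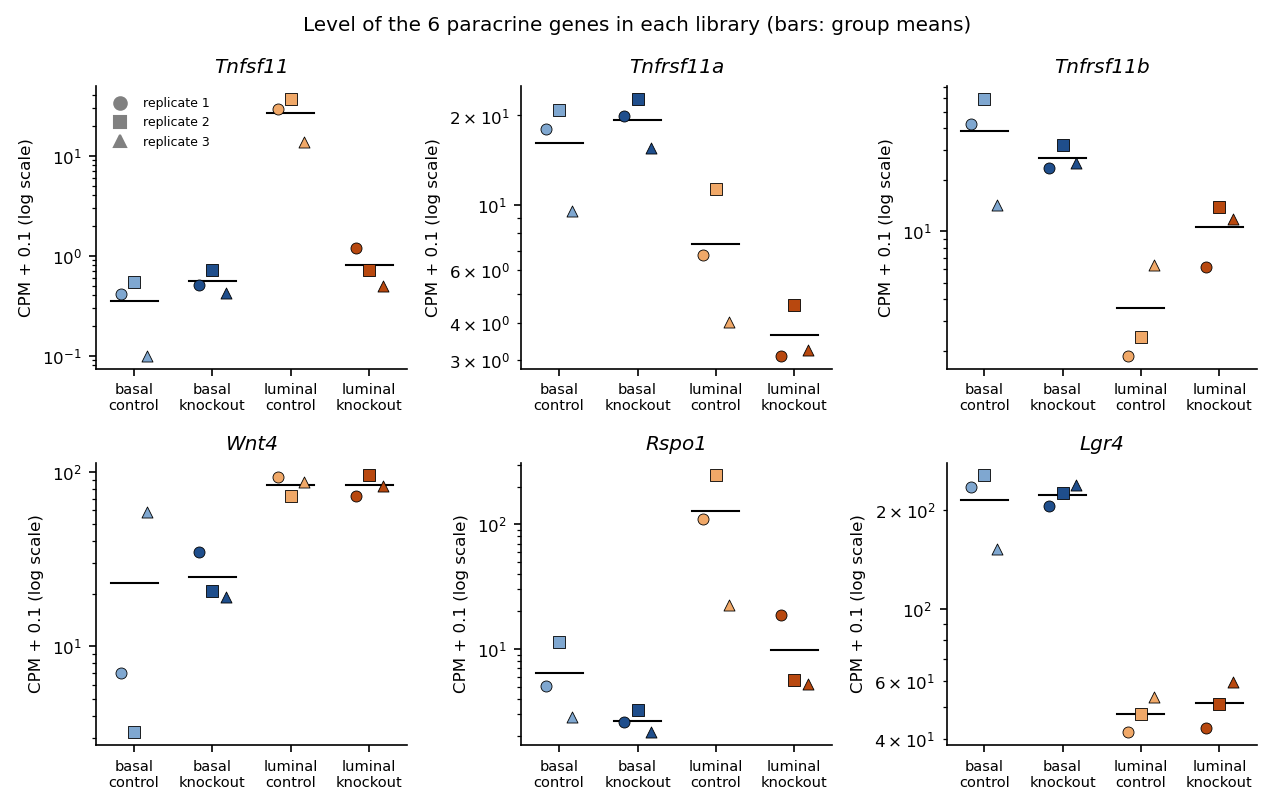
Level of each of the 6 genes in the 12 libraries, as CPM plus 0.1 on a log axis, by group on the x axis. Symbols are replicates and black bars the mean of 3 libraries, and the library with 0 Tnfsf11 counts sits at 0.1. Tnfsf11 is high in luminal controls and low in the other 3 groups. Rspo1 is highest in luminal controls, but its luminal control replicate 3 (22.6 CPM) lies near luminal knockout-labelled replicate 1 (18.6 CPM). Wnt4 is alike in both luminal groups, and Lgr4 separates basal from luminal libraries.

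Wnt4, a Wnt ligand of luminal cells (Entrez 22417, chromosome 4, 137277635 to 137299501, plus strand), stood at the same mean level in both luminal groups. Luminal controls held 93.5, 72.6 and 86.7 CPM and luminal knockout-labelled libraries 72.4, 95.2 and 82.5 CPM. The ranges nearly coincided, with means of 84.2 ± 10.6 and 83.4 ± 11.4 CPM (SD, n = 3). The log2 fold was -0.02 (SE 0.75, adjusted p = 0.995), with a 95% interval of -1.65 to 1.62 that reflects the spread of this gene in the basal libraries as well, since all 4 groups share the fit.

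The spread of Wnt4 in basal cells came from 1 library. Basal controls held 6.95 and 3.13 CPM in replicates 1 and 2 and 59.0 CPM in replicate 3, and basal knockout-labelled libraries held 34.6, 20.5 and 19.0 CPM. Control replicate 3 was above and the other controls were below every knockout-labelled library. With the 3 controls the log2 fold was 0.10 (SE 0.76, adjusted p = 0.996), and without control replicate 3 it was 2.30 (adjusted p = 0.0183), a call that rests on 2 control libraries. Replicate 3 also had 71.6 CPM of the oestrogen receptor gene Esr1, against 10.6 and 4.56 CPM in the other basal controls, and 167 CPM of the proliferation marker Mki67, against 55.6 and 44.0 CPM. Its Tnfsf11 count was 0, and its Foxa1 level was 13.9 CPM against 8.30 and 6.52 CPM. Luminal keratins went both ways, with Krt8 lower (428 CPM against 605 and 500 CPM). Krt18 (194 CPM against 181 and 129 CPM) and Krt19 (83.5 CPM against 74.2 and 45.6 CPM) were higher. Pgr was lower, at 11.7 CPM against 17.7 and 22.5 CPM. Of the basal markers, Krt5 was higher (7270 CPM against 2387 and 2574 CPM) and Acta2 lower (1242 CPM against 4845 and 5180 CPM). The part of these differences in the Wnt4 value was not tested. Luminal controls were above all basal controls, but the fold between them was not called (log2 fold 1.87, SE 0.78, adjusted p = 0.0862), and without basal control replicate 3 it was 4.07 (adjusted p = 2.65e-05). In knockout-labelled libraries the luminal level was also above every basal one without a call (log2 fold 1.75, SE 0.77, adjusted p = 0.0916).

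The sequence before a transcript start is shown for the 3 ligand genes, because Tnfsf11 and Rspo1 fell in luminal cells and Wnt4 was not called. RefSeq windows on GRCm38 were found for 5 of the 6 genes, and the 250 bases upstream of the transcript start used in that table are printed 5′ to 3′ on the strand of the gene, in lower case, with a match to the TATA motif in capitals. Tnfsf11 is at chr14:78308044-78308293 on the minus strand, Rspo1 at chr4:124986180-124986429 and Wnt4 at chr4:137277385-137277634, both on the plus strand. The Rspo1 window runs past the gene start given above, because the transcript used starts further in, so its last bases lie inside the annotated gene.
Tnfsf11: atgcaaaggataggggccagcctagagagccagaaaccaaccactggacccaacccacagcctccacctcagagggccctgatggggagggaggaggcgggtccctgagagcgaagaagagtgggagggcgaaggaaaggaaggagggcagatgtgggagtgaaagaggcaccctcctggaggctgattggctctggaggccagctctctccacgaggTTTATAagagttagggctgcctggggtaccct
Rspo1: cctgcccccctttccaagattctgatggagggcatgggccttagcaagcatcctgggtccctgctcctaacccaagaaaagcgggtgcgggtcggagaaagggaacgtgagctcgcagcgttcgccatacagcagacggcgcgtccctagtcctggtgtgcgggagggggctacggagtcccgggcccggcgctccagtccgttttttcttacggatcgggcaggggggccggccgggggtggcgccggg
Wnt4: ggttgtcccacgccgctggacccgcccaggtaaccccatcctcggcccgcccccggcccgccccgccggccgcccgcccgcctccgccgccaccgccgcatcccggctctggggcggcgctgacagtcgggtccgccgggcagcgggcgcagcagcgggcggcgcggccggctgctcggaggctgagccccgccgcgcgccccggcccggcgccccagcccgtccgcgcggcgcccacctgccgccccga
G and C made up 60.4% of the Tnfsf11 window, 66.8% of that of Rspo1 and 85.2% of that of Wnt4. The median over 32851 windows of the same length was 52.4%, and the spread around it was not computed. The TATA motif, searched as TATAAA on both strands, matched once in the Tnfsf11 window as TTTATA, with its first base 32 bases before the start, and in neither of the others. That motif was found in 12.4% of all windows. The forkhead motif TGTTTAC (3.17% of windows), its shorter form TGTTTA contained in it (12%), the steroid receptor element AGAACA (16.1%) and the STAT motif TTCNNNGAA (7.02%), searched on both strands, were absent from these 250 bases in each of the 5 genes. These matches describe the letters of the windows and were not linked to any measurement of binding.

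The receptor Tnfrsf11a, RANK (Entrez 21934, chromosome 1, 105780673 to 105849444), was more abundant in basal than in luminal cells. Basal controls held 17.9, 20.7 and 9.42 CPM and basal knockout-labelled libraries 19.8, 22.7 and 15.4 CPM, with no call (log2 fold 0.27, SE 0.38, adjusted p = 0.982). Luminal controls held 6.64, 11.2 and 3.92 CPM and luminal knockout-labelled libraries 2.99, 4.47 and 3.14 CPM. Knockout-labelled replicate 2 was above control replicate 3, so these groups overlapped. The luminal log2 fold was -1.04 (SE 0.40) and was not called (adjusted p = 0.204), but it was called with replicate number as a block (log2 fold -0.94, adjusted p = 0.0491), in a fit that called 7.36% of genes. Luminal minus basal, the effects differed by -1.30 on the log2 scale, with no call (SE 0.55, adjusted p = 0.46). In controls the luminal level was 2.21-fold below the basal one (log2 fold -1.14, SE 0.39, adjusted p = 0.0418), although 1 luminal library exceeded 1 basal library. That call was lost on leaving out any 1 of 9 libraries, with adjusted p up to 0.144. The knockout-labelled libraries did not overlap between cell types, and the luminal level was 5.45-fold below the basal one (log2 fold -2.45, SE 0.41, adjusted p = 0.000735).

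The decoy receptor Tnfrsf11b, osteoprotegerin (Entrez 18383, chromosome 15, 54250619 to 54278484), was also mainly basal. Luminal controls held 1.78, 2.31 and 6.23 CPM and luminal knockout-labelled libraries 6.08, 13.7 and 11.7 CPM. Only control replicate 3 reached the knockout-labelled range, and it exceeded the lowest of them slightly. The luminal log2 fold was 1.61 (SE 0.56, adjusted p = 0.158) and was not called, and without luminal control replicate 3 it was 2.38 (adjusted p = 0.049). Basal controls held 42.0, 59.2 and 14.1 CPM and basal knockout-labelled libraries 23.2, 32.0 and 25.0 CPM, with control replicate 3 lowest and the other controls highest of the 6 (log2 fold -0.52, SE 0.52, adjusted p = 0.954). The difference between the luminal and basal effects was 2.14 on the log2 scale and was not called (SE 0.76, adjusted p = 0.338). In controls Tnfrsf11b was 11.2-fold lower in luminal cells (log2 fold -3.48, SE 0.59, adjusted p = 0.000909), with groups that did not overlap. In knockout-labelled libraries the groups did not overlap either, but the luminal level was 2.54-fold lower with no call (log2 fold -1.35, SE 0.53, adjusted p = 0.0633).

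Lgr4, a receptor for R-spondins that has also been described as a receptor for RANKL in mouse bone (Entrez 107515, chromosome 2, 109917647 to 110014257), differed mainly between cell types. Basal controls held 235, 255 and 151 CPM and basal knockout-labelled libraries 206, 225 and 238 CPM. Luminal controls held 41.8, 47.5 and 53.6 CPM and luminal knockout-labelled libraries 43.0, 51.0 and 59.7 CPM. Genotype groups overlapped in both cell types, with log2 folds of 0.06 in basal (SE 0.20, adjusted p = 0.99) and 0.10 in luminal cells (SE 0.21, adjusted p = 0.852). The 95% interval of the luminal log2 fold ran from -0.35 to 0.56. Basal cells held more Lgr4 than luminal cells in both genotypes, with luminal log2 folds of -2.17 in controls (SE 0.21, adjusted p = 2.43e-05) and -2.12 in knockout-labelled libraries (SE 0.21, adjusted p = 2.63e-05).

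**Figure D2:**
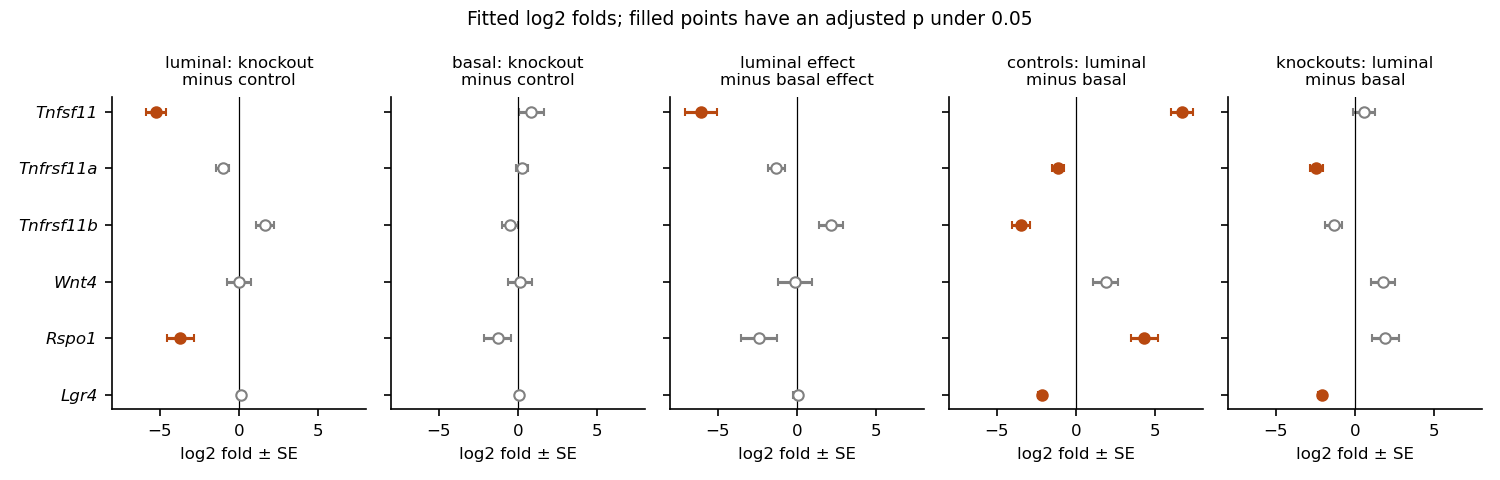
Fitted log2 folds with their SE for the 6 genes in 5 comparisons, each from all 12 libraries with 3 in a group. Filled points have an adjusted p under 0.05: Tnfsf11 (-5.25) and Rspo1 (-3.70) in the luminal genotype comparison and none in the basal one.

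Between cell types, 5 of the 6 genes were called in controls, with Tnfsf11 and Rspo1 higher and the 3 receptor genes Tnfrsf11a, Tnfrsf11b and Lgr4 lower in luminal cells. This comparison called 33.2% of all genes, 16.3% higher and 16.8% lower, and the groups of 44.1% did not overlap, nor did those of the 6 other than Tnfrsf11a. In knockout-labelled libraries 2 of the 6 were called, Tnfrsf11a and Lgr4, both lower in luminal cells, where 40.6% of all genes were called and 21.4% were called lower. The groups of 54.9% of genes did not overlap there, nor did those of the 6 other than Tnfsf11. The same fits gave 2 of 6 called in the luminal genotype comparison, beside a background of 3.03%, and 0 of 6 in the basal one, beside 0.671%. At an unadjusted p under 0.05 the basal comparison also held 0 of the 6, beside 8.88% of all genes, and DESeq2 and limma-voom called none of them there. The 2 comparisons between genotypes use separate libraries, whereas each comparison between cell types shares its libraries with both of them.

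Per kilobase of counted exon, which allows levels of different genes to be compared, Rspo1 led the luminal controls at 68.8 ± 61.3 CPM per kilobase (SD, n = 3), followed by Wnt4 at 22.0 ± 2.79, Tnfsf11 at 11.9 ± 5.32, Lgr4 at 9.42 ± 1.16, Tnfrsf11a at 1.44 ± 0.73 and Tnfrsf11b at 1.22 ± 0.86. Rspo1 ranged from 12.3 to 134 CPM per kilobase there, so its rank above Wnt4 was not held in every library. In luminal knockout-labelled libraries Wnt4 led at 21.8 ± 2.99 CPM per kilobase, and Tnfsf11 was last at 0.317 ± 0.159. Lgr4 at 10.1 ± 1.65, Rspo1 at 5.33 ± 4.19, Tnfrsf11b at 3.72 ± 1.40 and Tnfrsf11a at 0.704 ± 0.163 lay between them. The level of the decoy receptor was thus below that of its ligand in luminal controls and above it in the luminal knockout-labelled libraries. In basal controls Lgr4 led at 42.3 ± 10.9 CPM per kilobase and Tnfrsf11b followed at 13.6 ± 8.08.

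The balance of ligand and decoy was followed in each library as the log2 ratio of Tnfsf11 to Tnfrsf11b counts, with 1 count added to each. It was 3.97, 3.94 and 1.11 in luminal control replicates 1, 2 and 3 and -2.37, -4.27 and -4.65 in the luminal knockout-labelled ones. The sign differed between the groups in 3 of 3 libraries on each side, and the difference of means was -6.77. In basal cells the ratio was -6.67, -6.79 and -7.27 in controls and -5.52, -5.48 and -5.85 in knockout-labelled libraries, a difference of 1.29 that rests on 0 to 7 Tnfsf11 counts a library. The exact 2-sided permutation test gave p = 0.1 for each of these, the smallest that 3 against 3 libraries allow, and 0.18 adjusted over the 18 ratio tests made.

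In bulk libraries, fewer cells of a type and less RNA per cell cannot be told apart, so markers of hormone-sensing luminal cells were read beside Tnfsf11. The 13 listed markers summed to 2548 to 4829 CPM in luminal controls and to 5426 to 8166 CPM in luminal knockout-labelled libraries, with none at 0, and the groups did not overlap. They also summed to 1365 to 1815 CPM in basal controls. In controls 8 of the 13 were called higher in luminal than in basal cells, beside 16.3% of all genes. Cd9 and S100a6, with means of 969 and 645 CPM in luminal controls and 978 and 390 CPM in basal ones, were not among the 8. Between the luminal groups 2 of the 13 rose, Fxyd2 (log2 fold 1.97, SE 0.38) and Sytl2 (2.08, SE 0.45), and 1 fell, the transcriptional coregulator Cited1 (-2.81, SE 0.36). With replicate number as a block 4 were higher and 1 lower. All genes were called at 3.03% in the first fit and 7.36% with the block. The receptor genes were not called, with log2 folds of 1.71 for Pgr (SE 0.58, adjusted p = 0.146), 1.12 for Esr1 (SE 0.72) and 1.05 for Prlr (SE 0.39), and Pgr stood at 68.3 ± 54.8 CPM in controls and 224 ± 131 CPM in knockout-labelled libraries. Relative to the summed markers the log2 ratio of Tnfsf11 fell by 6.07, from -7.16 ± 1.20 to -13.2 ± 0.99 (SD, n = 3; exact permutation p = 0.1, the smallest possible). The same ratio fell by 4.39 for Rspo1, by 1.93 for Tnfrsf11a and by 1.03 for Wnt4, each with groups that did not overlap and exact permutation p = 0.1. The marker sum was itself higher in the knockout-labelled libraries, so a gene of unchanged level falls in this ratio. Wnt4 was at means of 84.2 and 83.4 CPM, and the Tnfrsf11a groups overlapped in CPM. The ratio was not computed for other genes, so no share over all genes stands beside it. Against the counts of Esr1, Pgr, Prlr and Foxa1 alone, a choice made after the marker levels were seen, the falls were 6.14 for Tnfsf11, 4.45 for Rspo1, 2.0 for Tnfrsf11a and 1.09 for Wnt4.

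**Figure D3:**
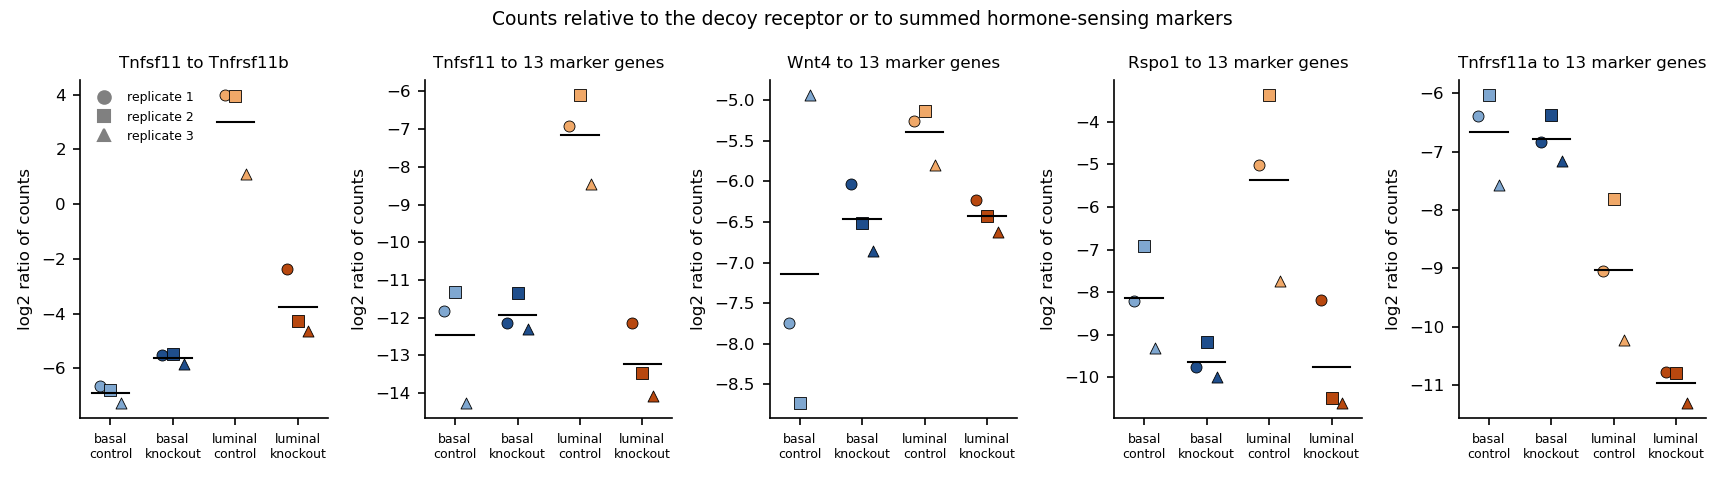
Log2 ratios of counts in each library, with 1 count added, for Tnfsf11 against Tnfrsf11b and for 4 genes against the sum of 13 hormone-sensing markers. Symbols are replicates and bars are group means. The luminal ratio of Tnfsf11 to the markers runs from -8.46 to -6.11 in controls and from -14.1 to -12.1 in knockout-labelled libraries.

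Markers of other cells were read between the luminal groups as well. The 14 basal markers summed to 1640 to 2118 CPM in luminal controls and 983 to 2023 CPM in luminal knockout-labelled libraries, with none at 0 and overlapping groups. One of them, the basal transcription factor gene Trp63, rose from a mean of 7.56 to 52.6 CPM (log2 fold 2.80, SE 0.58, adjusted p = 0.0253). The basal keratins Krt17 and Krt14 had log2 folds of 1.63 (SE 0.55, adjusted p = 0.144) and 1.40 (SE 0.65, adjusted p = 0.298), and Krt5 one of 0.22 (SE 0.99). These were the only 4 of the 14 with a positive log2 fold, and the median of the list was -0.48. The others were negative without a call, among them Oxtr at -2.17 (SE 0.80, adjusted p = 0.183) and Tagln at -1.15 (SE 0.44, adjusted p = 0.196). Tnfrsf11b, itself mainly basal, had a higher luminal level without a call. The 13 luminal progenitor markers summed to 6557 to 9681 CPM in luminal controls and 4858 to 6503 CPM in luminal knockout-labelled libraries. These sums did not overlap, by a narrow margin. The median log2 fold of the list was -0.73, with 2 of 13 positive and 1 called lower, the transcription factor Sox10 (log2 fold -1.05). Lymphocytes can make RANKL, and the defining T cell markers Cd3e and Cd3g were at no more than 0.201 and 0.101 CPM in any luminal library, and Cd3g was at 0 in the 3 knockout-labelled ones. Pericyte and endothelial markers summed to 103 to 179 CPM and 79.7 to 94.0 CPM, without overlap and lower in the knockout-labelled group. Their median log2 fold was -1.16, with 3 of 14 positive and 0 called. Fibroblast markers (84.7 to 437 CPM and 138 to 399 CPM) and macrophage markers (13.8 to 32.5 CPM and 16.0 to 33.4 CPM) overlapped. The log2 fold of Tnfsf11 was -5.23 with salivary genes and the ribosomal transcript Rn45s left out, and that of Rspo1 was -3.67. In basal cells fibroblast markers were higher in knockout-labelled libraries, at 2174 to 3519 CPM against 715 to 769 CPM, and progenitor markers at 5440 to 6591 CPM against 1545 to 2482 CPM. The part of these markers in the values of the 6 genes was not tested.

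Below RANK, none of the listed adaptors, kinases, NF-kB subunits and targets passed the test. Of 26 genes edgeR called 0 in luminal and 0 in basal cells, beside 3.03% and 0.671% of all genes. Their median log2 folds were -0.07 and 0.12, beside -0.03 and -0.01 over all genes tested. An unadjusted p under 0.05 was found for 3 of them in luminal and 2 in basal cells, beside 17.2% and 8.88% of all genes, so neither count stands above the background. The lowest p in luminal cells belonged to Ikbkg, the NEMO scaffold of the IKK complex, at 0.79 (SE 0.23, adjusted p = 0.0944). Nfkb1 followed at 0.71 (SE 0.31, adjusted p = 0.27). Both were called with the replicate block (adjusted p = 0.0408 and 0.0417). That fit called 2 of the 26, beside 7.36% of all genes, so its calls do not stand above the background. In basal cells the lowest p belonged to the inhibitor Nfkbia at 0.60 (SE 0.24, adjusted p = 0.449). The luminal transcription factor Elf5 followed at -1.24 (SE 0.53, adjusted p = 0.497).

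Among other TNF superfamily genes the calls in luminal cells were rises, in a comparison that called 2.21% of all genes higher and 0.819% lower. Of 11 tested ligands 2 rose, Eda, the ectodysplasin ligand (log2 fold 1.61, SE 0.31, adjusted p = 0.0194), and Tnfsf10, the apoptosis ligand TRAIL, from 8.62 to 36.1 CPM in the mean (2.07, SE 0.43, adjusted p = 0.0251). Of 20 tested receptors 2 rose, Tnfrsf9, the costimulatory receptor 4-1BB, from a mean of 0.517 to 7.81 CPM (3.90, SE 0.71, adjusted p = 0.0162) and Tnfrsf23, a decoy receptor for TRAIL in mouse (2.01, SE 0.48, adjusted p = 0.0466). The replicate block, with 7.36% of all genes called, added Tnfrsf21, a death receptor (log2 fold 0.70, SE 0.20, adjusted p = 0.0945; 0.0353 with the block). Median log2 folds were 0 for the ligands and 0.42 for the receptors. The ligand median is the value of Cd70, which had 0 CPM in both luminal groups, so it is not a measured fold. In basal cells 0 of the 31 were called, with the lowest p for Tnfsf13b at 2.24 (SE 0.54, adjusted p = 0.108) and Tnfrsf22 at -1.31 (SE 0.36, adjusted p = 0.146). An unadjusted p under 0.05 was found for 3 ligands and 3 receptors there, beside 8.88% of all genes.

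Of the other R-spondins, Lgr receptors, ligases and Lrp coreceptors, 6 of 9 were tested and 0 were called in either cell type. The lowest p in luminal cells was that of the ligase Rnf43 at -0.92 (SE 0.40, adjusted p = 0.267), followed by Znrf3 at -0.34 (SE 0.22, adjusted p = 0.479), and in basal cells that of Znrf3 at -0.37 (SE 0.22, adjusted p = 0.765) and of Lrp5 at -0.18 (SE 0.21, adjusted p = 0.965). An unadjusted p under 0.05 was found for 1 in luminal and 0 in basal cells, beside 17.2% and 8.88% of all genes. Rspo2, Rspo3 and Rspo4 did not pass the filter and had means of at most 0.689 CPM in any group, so Rspo1 was the 1 R-spondin gene above it. Lgr5, the stem cell receptor related to Lgr4, stood at 133 and 129 CPM in basal controls and knockout-labelled libraries and at 3.73 and 2.86 CPM in luminal ones.

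Of 13 tested Wnt ligand and secretion genes in luminal cells, Porcn, the acyltransferase that Wnt ligands need for secretion, rose (log2 fold 3.19, SE 0.31, adjusted p = 0.000812), and Wnt5b fell (-1.60, SE 0.29, adjusted p = 0.0158), beside 3.03% of all genes called. None was called in basal cells, where Wnt2 at 2.58 (SE 0.58, adjusted p = 0.0813) and Wnt3 at 3.64 (SE 0.91, adjusted p = 0.137) had the lowest p. The 14 Frizzled and other Wnt receptors had 0 called in each cell type and medians of -0.31 in luminal and 0.09 in basal cells. Fzd1 was just outside in luminal cells at -1.18 (SE 0.29, adjusted p = 0.051; 0.0404 with the replicate block). Among 19 tested Wnt feedback and target genes, 2 rose in luminal cells, both inhibitors of Wnt signalling or related to them: Apcdd1 (3.94, SE 0.27, adjusted p = 3.76e-05) and Dkk3 (2.80, SE 0.35, adjusted p = 0.00321). In basal cells the secreted antagonist Sfrp1 rose (1.70, SE 0.23, adjusted p = 0.00933), 1 of 19. All genes were called at 3.03% in luminal and 0.671% in basal cells. With the replicate block 2 of the 19 were higher and 2 lower in luminal cells, where that fit called 7.36% of all genes. The 2 lower, named after their values were seen, were Axin2 (log2 fold -2.59, SE 0.78, adjusted p = 0.106 and 0.0293 with the block) and Procr (-1.72, SE 0.98, adjusted p = 0.41 and 0.0407 with the block). The medians of this list were -0.19 and -0.04.

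Among 20 genes of hormone receptors, their targets and other paracrine signals, 1 was called in luminal cells and 1 in basal cells, beside 3.03% and 0.671% of all genes. Greb1, a hormone receptor target and coregulator, rose in luminal cells from a mean of 1.70 to 61.3 CPM (log2 fold 5.18, SE 1.25), at an adjusted p just under the threshold. Adamts1, a secreted protease, rose in basal cells (2.18, SE 0.41, adjusted p = 0.0395). With the replicate block 2 were higher and 3 lower in luminal cells, beside 7.36% of all genes. One of these was Calca, the calcitonin gene and a progesterone target, named after its values were seen, at a mean of 312 CPM in controls and 21.8 CPM in knockout-labelled libraries (log2 fold -3.84, SE 1.04, adjusted p = 0.0743; 0.00729 with the block). Areg, the oestrogen-induced EGF receptor ligand, had a luminal log2 fold of -0.37 (SE 0.54, adjusted p = 0.784), and Ccnd1, a cyclin needed for the response to RANKL, one of -0.07 (SE 0.43, adjusted p = 0.961). The list's medians were -0.03 in luminal and 0.23 in basal cells.

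**Figure D4:**
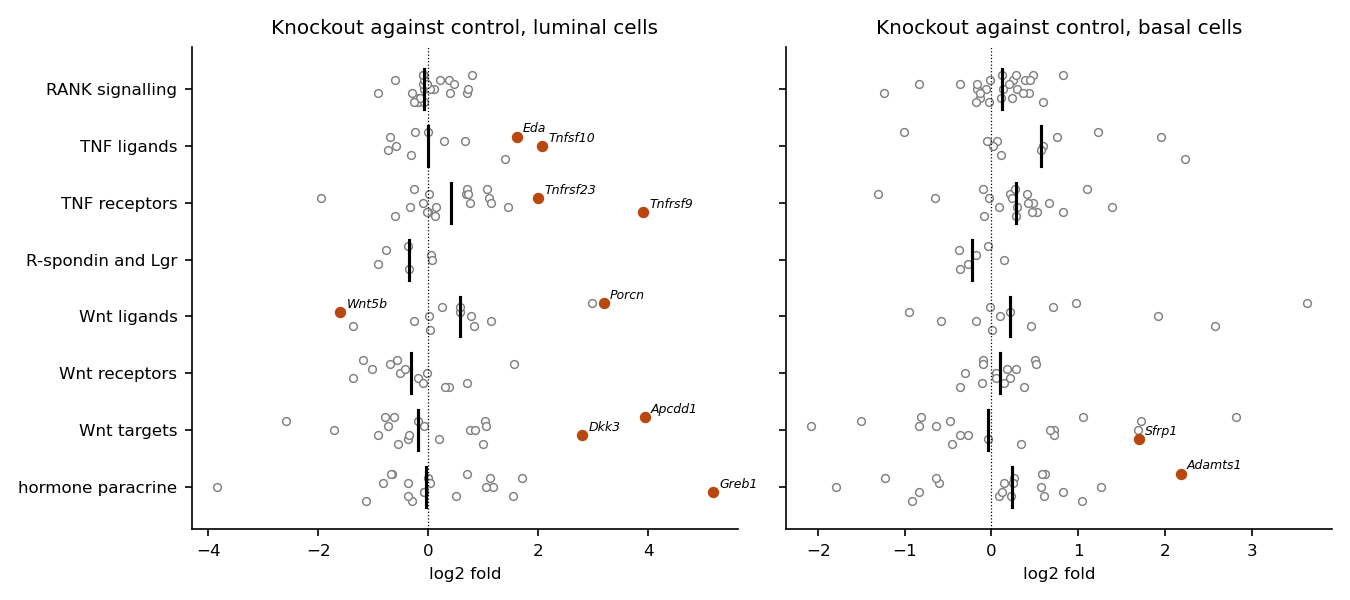
Log2 fold of each tested gene of 8 pathway lists, knockout-labelled against control, in luminal cells (left) and basal cells (right). Each point is a gene from 3 against 3 libraries, filled and named where its adjusted p is under 0.05, and black bars are list medians, which lie between -0.35 and 0.58.

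The genes most like each ligand across the 12 libraries were found by the mean absolute difference of log2 CPM, each gene centred on its own mean, among 12579 named genes. Nearest to Tnfsf11 were the collagen gene Col8a1 (mean difference 0.62 on the log2 scale), Cnmd, which encodes the cartilage protein chondromodulin (0.75), the casein gene Csn2 (0.80) and Rspo1 itself (0.81). Each of these stood highest in luminal controls, with means there of 103 CPM for Col8a1, 6.13 CPM for Cnmd and 11.8 CPM for Csn2, and in luminal knockout-labelled libraries of 2.91, 0.685 and 0.266 CPM. Nearest to Rspo1 were Entpd8, an ectonucleotidase (0.56), Extl1 (0.76), Cnmd (0.76) and Cited1 (0.79). Among the nearest to Wnt4 were Ccdc88c (0.37), the receptor gene Erbb3 (0.37) and Tmem54 (0.39), which had luminal log2 folds from -0.21 to 0.48, none called. Among the 6 genes themselves the nearest pair was Tnfrsf11a and Lgr4 (0.43), then Tnfrsf11b and Lgr4 (0.59), and Tnfsf11 and Tnfrsf11b were the farthest apart (3.17). These distances are descriptions over libraries that differ in cell type and genotype together.

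**Figure D5:**
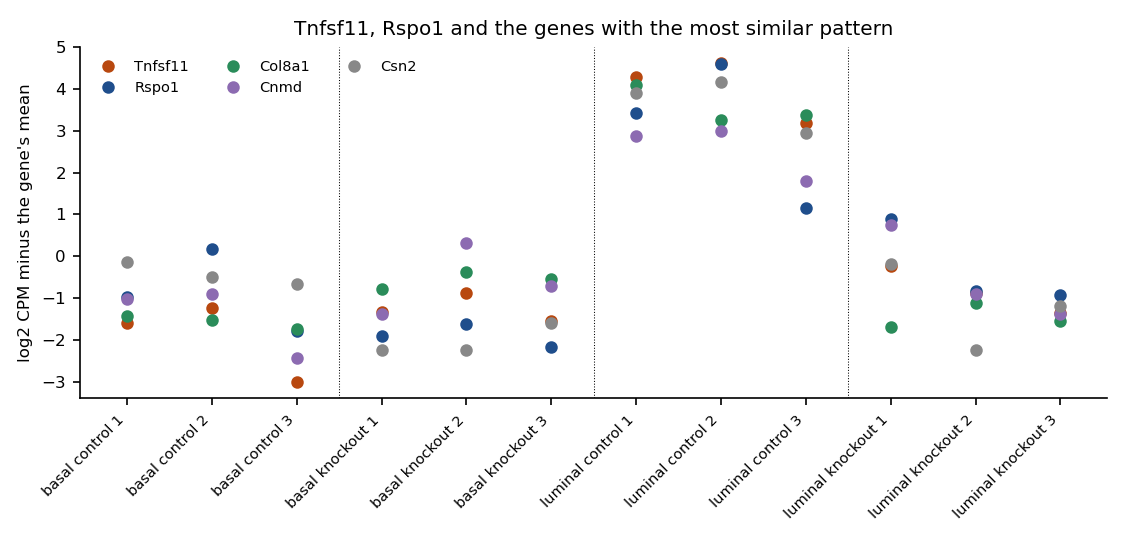
Log2 CPM minus the gene's own mean over 12 libraries, for Tnfsf11 and the 4 genes with the smallest mean absolute difference from it, Rspo1 among them. Each point is 1 library and dotted lines separate the 4 groups, and the 3 luminal controls stand above the other groups for each gene, by little in the case of Rspo1 in luminal control 3.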

How the data were processed

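RNA of 12 libraries, 3 for each of 4 groups, was extracted with a Qiagen kit and sequenced on an Illumina instrument after unstranded TruSeq v2 preparation, per the labels' protocols. The deposited values are whole-number counts per gene with no normalization by the authors. CASAVA 1.8.2, featureCounts and mm10 are named in the submitters' processing notes, while no source used here names the aligner or the annotation. Gene lengths in bases, another deposited column, were used for levels per kilobase. The series table and the 12 tables of single libraries differed in 0 values.

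The test was the robust quasi-likelihood F test of edgeR 4.0.16 (R 4.3.3) on the counts, with TMM factors and the default expression filter. One model held the 4 groups, leaving 8 residual degrees of freedom, and gave 5 contrasts, with p adjusted by Benjamini-Hochberg over 14903 genes. The tested genes held at least 99.8% of each library's counts. Alternatives used DESeq2 1.42.0 and limma 3.58.1, among others. The steps were tested on simulated data. The 6 genes, 16 gene lists (254 genes) and tests were chosen with earlier results of these data known. The lists have counts and medians and no set test. Named beyond the 6 genes are, per pathway list and genotype comparison, up to 4 called genes with the lowest p or otherwise up to 2, and the 4 genes most like Tnfsf11, Rspo1 and Wnt4 with an average log2 CPM of at least 1. Log2 CPM for those patterns used a prior count of 2. Some genes of these lists and patterns are not reported here. No annotated exon of another gene overlaps those of the 6.

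Replicate numbers are shared between groups. Correlations of same-numbered libraries' deviations from their group means were 0.36, 0.30 and 0.53 between the luminal groups and 0.31, 0.42 and 0.47 between the controls, so the numbers were taken to pair libraries there. In the basal genotype comparison they were -0.09, 0.36 and 0.13, against at most 0.14, -0.14 and 0.22 for other numbers. The numbers were not taken to pair libraries there. Between knockout-labelled cell types they were 0.09, 0.42 and 0.42, against at most -0.03, 0.02 and -0.09 for other numbers. The same number was thus the nearest in that comparison too, weakly for replicate 1. The main fit and the permutation tests did not use this pairing, and only the replicate block did. With that block in edgeR the luminal log2 fold was -5.19 for Tnfsf11 (adjusted p = 0.00047) and -3.32 for Rspo1 (adjusted p = 0.0153), where 7.36% of all genes were called. Replicates differed by more than sampling noise, with chi-square per degree of freedom from 12.2 to 142. The series description calls the replicates biological without naming animals, so p-values measure the spread between these libraries. Counting floors cover counting error alone.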

Additional observations from a re-analysis of the deposited data

Results flagged for a closer look

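The genotype effect on Tnfsf11 differed between the cell types. Its log2 fold was -5.25 in luminal and 0.83 in basal cells, a difference of -6.08 (SE 1.01, edgeR adjusted p = 0.0392, n = 3 a group) by a test of the difference itself. The basal side rests on 8 control and 14 knockout-labelled counts, each summed over 3 libraries. The call was lost in 9 of the 12 fits that leave out 1 library, with adjusted p from 0.02 to 0.147.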

How the results depend on the processing

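Outside the fits without 1 library, 323 alternative values kept their direction and call, 11 counts or ratios moved, 7 values changed sign, 11 gained and 7 lost a call. The fall of luminal Tnfsf11 kept its direction and call in each alternative, 12 fits without 1 library included (log2 fold -5.69 to -4.94 in those 12). In luminal cells Rspo1 lost its call with no low-count filter (-3.67), limma-voom (-3.45) and only the groups compared (-3.68), and ran from -4.56 to -2.77 without 1 library. Luminal Wnt4 changed sign near 0 with library size alone (0.0079), no filter (0.0062), the replicate block (0.025) and salivary genes left out (0.0016), and ran from -0.12 to 0.082 without 1 library. Tnfrsf11a was called under the replicate block (-0.94). Tnfrsf11b ran from 1.31 to 2.38 and Lgr4 from -0.020 to 0.22 without 1 library. Genes called in luminal cells numbered 451, and 1089 with DESeq2, 1097 with the block, 199 with only the groups compared and 127 to 716 without 1 library. In basal cells, library size alone turned Wnt4 (-0.030) and Lgr4 (-0.010), and without 1 library Wnt4 ran from -0.42 to 2.30, Lgr4 from -0.14 to 0.20 and Tnfrsf11a from -0.0038 to 0.50. The 100 basal calls became 59 with library size alone, 417 with DESeq2, 236 with the block, 151 with only the groups compared and 17 to 142 without 1 library.

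For the difference of effects, Tnfsf11 lost its call with limma-voom (-6.50) and ran from -6.81 to -5.51 without 1 library. Wnt4 turned with library size alone (0.038) and ran from -2.32 to 0.40, and Lgr4 from -0.10 to 0.24. The 41 calls became 356 with DESeq2, 22 with limma-voom, 106 with the block and 10 to 86 without 1 library. Between cell types in controls, Tnfrsf11a lost its call with upper quartile factors (-1.08), library size alone (-1.07) and only these groups (-1.18), with -1.59 to -0.88 without 1 library, while Wnt4 was called with DESeq2 (1.83) and limma-voom (2.93), with 1.35 to 4.07. In knockout-labelled libraries Tnfrsf11b was called with DESeq2 (-1.37) and only these groups (-1.39), Wnt4 with DESeq2 (1.73), limma-voom (1.8) and only these groups (1.71), and Rspo1 with DESeq2 (1.89), the block (1.95) and only these groups (1.87). Their ranges without 1 library were -1.58 to -1.07, 1.58 to 2.07 and 1.04 to 2.22. The basal log2 ratio of Tnfsf11 to Tnfrsf11b differed by 1.58 with 0.5 counts added. The block changed no other call among the 6 genes. Library size alone moved the median of all genes between knockout-labelled cell types to 0.15 on the log2 scale, from 0.03. The causes were not tested. Depth limits basal Tnfsf11, with 0 to 7 counts a library.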
